A study of Mus musculus with 2 samples.

Results

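The genes described here are the late effector genes of disease-associated microglia (DAM), named as a list of 7 and looked up as rows of the deposited count table. Of these, 6 were analysed among the 32285 genes of the table, namely Spp1, Igf1, Lgals3, Itgax, Cd9 and Gpnmb, and the remaining one was not analysed here. Both groups were PSAPP mice, which carry the APPswe and PS1δE9 transgenes and deposit amyloid in the brain. One group received vehicle (VEH, 0 mg/kg/day) and the other lemborexant (LEM, 30 mg/kg/day), an antagonist of both orexin receptors used as a sleep medicine, by daily oral gavage for 30 days from 9 to 10 months of age. Live CD45loCD11b+ cells of the cortex and hippocampus were sorted, and those of 5 mice were pooled into 1 library per treatment. With 1 library in each group no test between treatments was possible, mice within a pool cannot be told apart, and every interval given here is a 95% interval that covers counting error only.

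Microglia that gather at amyloid plaques lower their homeostatic genes and induce a DAM program in steps, with Apoe, Tyrobp and B2m early and lipid, lysosomal and secreted effectors late. The late step depends on the lipid receptor TREM2. Among its products, osteopontin (Spp1), insulin-like growth factor 1 (Igf1) and galectin-3 (Lgals3) leave the cell and act on integrins, CD44, growth factor receptors or glycans. Integrin alpha X (Itgax, also CD11c), the tetraspanin CD9 and the glycoprotein GPNMB sit in the membrane or in lysosomes.

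The table held 18374 VEH and 24392 LEM cells with medians of 5971 and 6034 counts per cell and totals of 116229678 and 160752298 counts. Microglial markers fitted the label, since P2ry12 stood at 4287 CPM in VEH and 4103 CPM in LEM (counts of a gene scaled to a library total of 1e6), Cx3cr1 at 3107 and 3056 CPM and Tmem119 at 2051 and 2078 CPM, while the 6 markers of border-associated macrophages summed to 6.37 and 9.16 CPM and the 8 of choroid plexus to 36.8 and 103 CPM. The 4 markers of monocytes and neutrophils summed to 4.95 and 5.07 CPM, nearly all from Ccr2, and the 3 of T and NK cells to 0.0688 and 0.0871 CPM, all from Cd3d. Most of the choroid plexus sum came from Enpp2, at 27.6 CPM in VEH and 78.1 in LEM, so calls of plexus-rich droplets may rest largely on it. Droplets rich in choroid plexus markers numbered 39 in VEH and 130 in LEM, and those rich in macrophage markers 27 and 67. Cells carrying Xist or Y-linked transcripts were called female (5686 VEH, 8409 LEM) or male (9025 and 11223), and 981 and 1764 droplets carried both.

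Each cell was placed in a state class by its summed counts of Cst7 and Lpl, a protease inhibitor and a lipase of the DAM program that are not among the 6 genes. Class 0 held 16286 VEH and 21581 LEM cells, class 1-2 held 1296 and 1759, class 3-9 held 394 and 561, and the class of 10 or more held 398 and 491. The last class made up 2.17% of VEH cells (1.96 to 2.39) and 2.01% of LEM cells (1.84 to 2.20), a log2 ratio of -0.11 (-0.30 to 0.09) whose interval includes 0. After thinning to 2000 counts per cell, the highest class was set at 4 or more thinned Cst7 and Lpl counts. With that other limit the log2 ratio of the shares was -0.42 (-0.66 to -0.17). Taken by sex, it was 0.21 (-0.12 to 0.55) for female and -0.47 (-0.77 to -0.17) for male cells. Median depth was higher in each higher class, from 5812 to 11831 counts in VEH and from 5874 to 12444 in LEM. The class shares of Spp1 are therefore also given after thinning. Other shares of cells with a count rest on deposited counts unless stated, and part of their gradient may be depth.

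The 5′ regions of Spp1 and Itgax are shown because both genes were higher in each higher class but parted between the treatments in the 2 highest classes. Over all cells both were higher in LEM (log2 ratios of 0.81 and 0.37). In the 10 or more class the ratios were 0.97 and -0.11. Both are RefSeq windows on GRCm38.p6, the plus strand, 250 bases ending just before the transcript start, with searched letters in capitals. Spp1 lies at chr5:104434861-104435110 and holds 1 GAGGAA, the core letters of PU.1 sites, from 113 to 108 bases before the start. Itgax lies at chr7:128129300-128129549 and holds 1 TGANTCA, the letters of AP-1 sites, from 56 to 50 bases before the start.
Spp1: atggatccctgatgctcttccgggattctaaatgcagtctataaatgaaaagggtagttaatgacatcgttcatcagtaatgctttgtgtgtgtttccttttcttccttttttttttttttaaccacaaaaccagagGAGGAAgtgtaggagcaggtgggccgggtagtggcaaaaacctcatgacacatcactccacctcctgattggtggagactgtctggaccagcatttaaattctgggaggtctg
Itgax: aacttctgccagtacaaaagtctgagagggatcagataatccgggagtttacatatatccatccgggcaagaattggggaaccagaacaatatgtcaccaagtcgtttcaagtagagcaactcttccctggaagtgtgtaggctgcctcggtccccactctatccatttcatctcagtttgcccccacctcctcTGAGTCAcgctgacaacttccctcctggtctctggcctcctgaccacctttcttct
In all, 4 letter strings were searched on both strands of the 7 RefSeq windows of the 6 genes (Spp1 has 2). GAGGAA was found in the Spp1 window shown, not in the other Spp1 window, and in that of Igf1, and occurs in 23.3% of all 32851 windows. TGANTCA was found in those of Itgax and Igf1 and occurs in 6.75%. CATGTG was found in that of Cd9 (12.3% of all windows), and CACGTG in none (6.02%). A match is a description of letters and no evidence of binding, and none of the 4 strings was shared by all members. In the GENCODE annotation of GRCm38, Spp1 spans 104435118 to 104441050 of chromosome 5, Igf1 87858265 to 87937042 of chromosome 10, Lgals3 47367751 to 47386160 of chromosome 14 and Itgax 128129547 to 128150657 of chromosome 7, all on the plus strand. Chromosome 6 holds Gpnmb (49036546 to 49070929, plus) and Cd9 (125460266 to 125494791, minus).

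The 6 genes fell into 3 patterns across the classes of a library. Spp1 and Igf1 had most of their counts in the 10 or more class, Itgax and Cd9 were widespread and also higher there, and Lgals3 and Gpnmb had a large part of their counts in a handful of cells. All 6 were at least 2-fold higher in the 10 or more class than in class 0 in both libraries, as a description beside 7.11% of all genes higher and 8.66% lower by that fold in VEH, and 6.69% higher and 8.41% lower in LEM. The median log2 ratio of the 6 genes was 5.53 in VEH and 5.34 in LEM, against -0.29 over all genes in each library. These shares cover genes found in at least 1% of the cells of either class, a limit that Gpnmb missed in VEH and that Spp1, Igf1, Lgals3 and, in LEM, Gpnmb passed only through the highest class, so the members' count is not on a par with them. In the same contrast, 27 of the 30 detected among 32 other DAM genes in VEH and 26 of 30 in LEM were at least 2-fold higher, led by the heparanase gene Hpse (log2 7.91 and 7.51), and none was lower by that fold. Some of these, Hpse at 0.0712 CPM in VEH class 0 among them, were likewise hardly found outside the highest class, so their count is a description too. Homeostatic P2ry12 stood at 4484 and 2177 CPM in the end classes of VEH and at 4288 and 2206 CPM in those of LEM, and was lower in the highest class of each.

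Spp1 and Igf1 had the steepest gradients among the well-counted genes, and Spp1, a secreted phosphoprotein that binds integrins and CD44, was the more abundant. In VEH its level was 1.69 CPM in class 0, 14.4 in class 1-2, 67.0 in class 3-9 and 165 in the 10 or more class (153 to 177). In LEM the levels were 2.11, 17.4, 133 and 322 CPM (308 to 336). The log2 ratio of the last to the first class was 6.61 (6.36 to 6.86) in VEH and 7.25 (7.07 to 7.44) in LEM. The 10 or more class, with about 2% of cells, held 59.0% of the VEH counts of Spp1 and 60.9% of the LEM counts. A Spp1 count was found in 0.774% of VEH class 0 cells and 60.6% of those in the highest class (0.312% and 23.4% after thinning), and in 0.931% and 69.0% in LEM (0.386% and 36.5%).

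Igf1, a growth factor for neurons and oligodendrocytes, was rarer but at least as concentrated. It stood at 0.366, 2.48, 17.0 and 69.7 CPM (62.4 to 77.7 in the last) across the VEH classes and at 0.583, 3.0, 24.0 and 82.7 CPM (75.6 to 90.3) across the LEM classes. The log2 ratio between the end classes was 7.57 (7.07 to 8.11) in VEH and 7.15 (6.80 to 7.51) in LEM. Of all Igf1 counts, 73.3% in VEH and 66.6% in LEM came from the 10 or more class. Even there it was found in 30.7% and 32.8% of cells, fewer than carried Spp1 or Itgax. Igf1os, on the opposite strand within Igf1, had 30 and 33 counts.

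Itgax, which pairs with the beta 2 integrin chain, was higher at every step of the classes but started from a wider base. Its VEH levels were 12.9, 27.3, 94.5 and 226 CPM (212 to 240), and its LEM levels 21.5, 38.4, 94.97 and 209 CPM (198 to 221). The log2 ratio of the end classes was 4.13 (4.01 to 4.25) in VEH and 3.28 (3.19 to 3.38) in LEM. Class 0 supplied 43.3% of Itgax counts in VEH and 55.7% in LEM, more than the 36.4% and 24.3% from the 10 or more class. Single counts made up much of this base, with 1.17 and 1.21 counts per positive class 0 cell against 3.77 and 3.78 in the highest class.

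Cd9, a tetraspanin that organises membrane partners, was found in 93.8% of VEH and 96.3% of LEM cells and was the only one of the 6 at that scale. Its levels ran from 1394 over 2020 and 3061 to 3455 CPM in VEH and from 1792 over 2456 and 3333 to 3687 CPM in LEM. The log2 ratios of the end classes, 1.31 (1.29 to 1.33) and 1.04 (1.02 to 1.06), were the smallest of the list. Class 0 held 74.6% and 76.6% of all Cd9 counts. Gm28809 and Gm26728 overlap Cd9 on the other strand and had 260 and 109 counts in VEH and 421 and 256 in LEM.

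Lgals3, a galactose-binding lectin recruited to damaged lysosomes, did not climb evenly. Its VEH levels were 1.23, 10.8, 21.6 and 26.9 CPM (22.4 to 32.0), and its LEM levels 2.12, 16.2, 67.1 (60.5 to 74.3) and 47.8 CPM (42.4 to 53.6), with the LEM peak in class 3-9. Only 8.04% of VEH and 12.02% of LEM cells of the highest class had an Lgals3 count. A single cell reached 36 counts in VEH and 56 in LEM, and the 10 cells with the most counts held 29.4% and 26.0% of each library's total. Without the 10 LEM cells richest in Lgals3 of a class, the level was 28.9 CPM in class 3-9 and 19.6 in the 10 or more class.

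Gpnmb, a glycoprotein of lysosome-rich macrophages, was close to absent. It gave 35 counts in 5 VEH cells and 61 counts in 14 LEM cells, or 0.301 (0.210 to 0.419) and 0.379 CPM (0.290 to 0.487). One VEH cell with 10 or more Cst7 and Lpl counts held 31 of the 35, and 33 of the 35 were in that class, so its VEH value of 6.99 CPM rests on that cell. In LEM 4 cells with 5 or more counts held 50 of the 61, and 1 of them was a droplet rich in choroid plexus markers. All 5 of these high cells were male, and 4 of the 5 were in the 10 or more class. The VEH ratio between end classes rests on 1 count in class 0 (log2 9.42, 6.85 to 14.8), and the LEM ratio on 14 counts (6.20, 5.31 to 7.18).

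**Figure D1:**
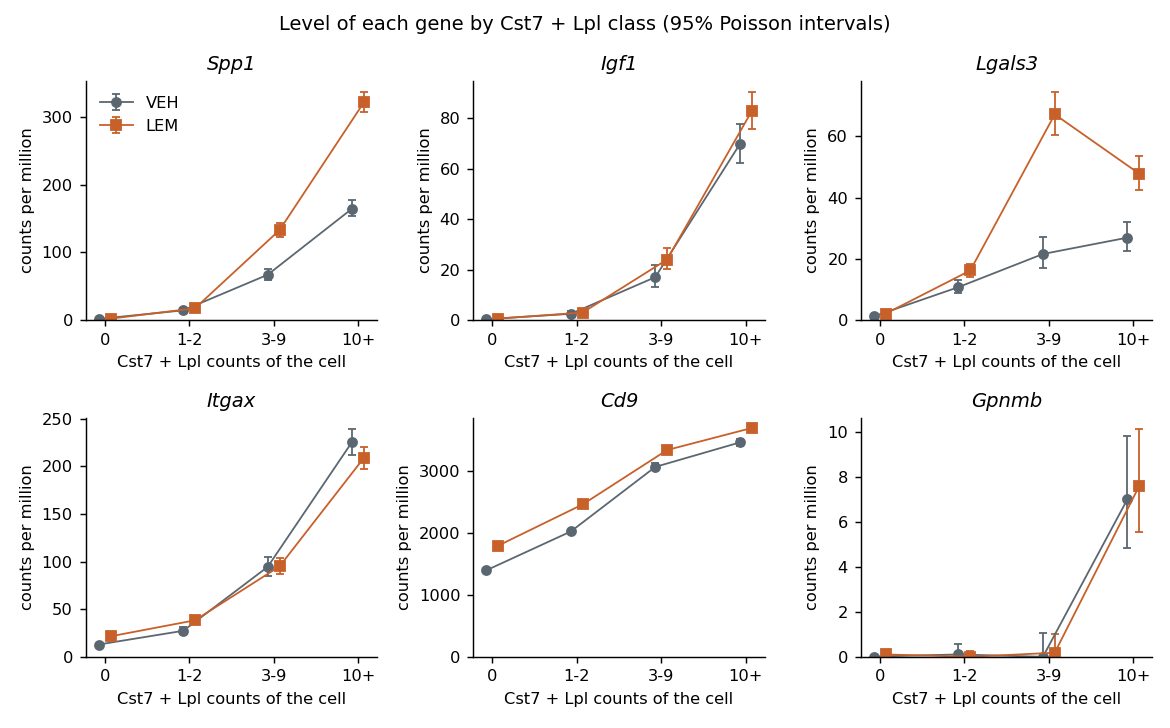
Level of each gene in CPM (vertical axes, from 0) by the summed Cst7 and Lpl counts of the cell (horizontal axes), for VEH (grey circles) and LEM (orange squares), with 95% Poisson intervals as bars. Spp1 reached 165 CPM in VEH and 322 in LEM in the highest class, while the Itgax lines met at 94.48 and 94.97 CPM in class 3-9.

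Free RNA can put counts into droplets that do not express a gene, and droplets rich in choroid plexus markers, a cell type that should lack most of these genes, were set beside these shares. In 169 such droplets of both libraries, with a median of 9099 counts, a count was found in 3.55% for Spp1, 2.96% for Igf1, 2.37% for Gpnmb, 9.47% for Itgax, 22.5% for Lgals3 and 94.1% for Cd9. The shares of Spp1 and Igf1 in the 10 or more class were many times those. These droplets are no clean measure of free RNA, since they also held microglial RNA, with P2ry12 at 2465 CPM in VEH and 1999 in LEM and a Cst7 or Lpl count in 11 of 39 and 21 of 130. For Itgax the class 0 shares were 6.67% in VEH (median 5812 counts) and 11.2% in LEM (median 5874), beside an interval of 5.51 to 14.9% in the droplets. In CPM, Itgax in these droplets was at 0 counts in 39 VEH droplets, which allows up to 7.47 CPM by the floor of 3 counts and 9.18 CPM by the 95% Poisson bound, beside 12.9 CPM in VEH class 0. In 130 LEM droplets it was at 19.8 CPM (12.7 to 29.5), beside 21.5 CPM in LEM class 0. Lgals3 was more frequent in these droplets than in any class of microglia, and whether plexus cells make it was not tested. Class 0 gave a lower reference within microglia, at 0.405% and 0.616% of cells for Lgals3.

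The comparison of LEM with VEH asks how the pooled microglia of treated mice differed in these genes. Over all cells, Lgals3 and Spp1 were higher in LEM by more than 1.5-fold and the other 4 genes were higher by less. Spp1 fell short of that fold in female cells alone (log2 0.55) and when each cell was weighted equally (0.54), while Lgals3 kept it in both (1.19 and 0.80). Counted against the background, 2 of 6 members passed 1.5-fold, while 1.2% of 11910 genes were higher and 0.932% lower by that fold. The median log2 ratio of the 6 genes was 0.35 and that of all genes 0.01. Of the 6, 5 were found in at least 1% of the cells of a library, the exception being Gpnmb. Lgals3 passed that limit only through LEM (0.887% of VEH and 1.30% of LEM cells). The members' count is therefore not on a par with the shares over all genes.

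Lgals3 went from 428 counts in VEH to 1168 in LEM, or from 3.68 (3.34 to 4.05) to 7.27 CPM (6.86 to 7.69), a log2 ratio of 0.98 (0.82 to 1.14). Spp1 went from 1318 to 3206 counts, or from 11.3 (10.74 to 11.97) to 19.9 CPM (19.3 to 20.6), a log2 ratio of 0.81 (0.72 to 0.91). For both genes the RNA level per library moved more than the share of cells, since Spp1 was found in 3.03% and 3.51% of cells and Lgals3 in 0.887% and 1.30%. After thinning the shares lay further apart, at 1.24% and 1.73% for Spp1 and 0.340% and 0.570% for Lgals3. Itgax went from 25.2 to 32.5 CPM (0.37, 0.30 to 0.43) and its share of cells went from 9.39% (8.97 to 9.82) to 13.8% (13.4 to 14.2). Cd9 went from 1581 to 1972 CPM (0.32, 0.31 to 0.33). Igf1 at 3.86 and 4.69 CPM (0.28, 0.11 to 0.45) turned direction when cells were weighted equally or female cells were taken alone (-0.0217 and -0.45), and Gpnmb differed by less than its counting error (0.33, -0.29 to 0.98).

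Split by class, the genes parted. In the 10 or more class 2 of 6 members, Spp1 and Lgals3, were higher in LEM by 1.5-fold, where 8.1% of all genes were higher and 7.49% lower. Spp1 had a log2 ratio of 0.97 (0.85 to 1.09) there and 0.99 (0.77 to 1.21) in class 3-9, but 0.32 (0.04 to 0.61) in class 0. Lgals3 was higher in every class, by 0.79 (0.48 to 1.11), 0.59 (0.25 to 0.94), 1.64 (1.28 to 2.01) and 0.83 (0.52 to 1.14) in ascending order with the sexes pooled. Without the 10 cells richest in Lgals3 in each library and class the last pair became 2.93 (2.12 to 3.87) and 1.42 (0.85 to 2.01), from 13 and 34 VEH counts. Cells with an Lgals3 count numbered 22 in VEH and 67 in LEM in class 3-9, and 32 and 59 in the 10 or more class. Leaving out 10 thus took a larger part of the VEH cells, and the higher ratios are not read as a result.

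Itgax and Cd9 showed the opposite order, with the largest LEM excess in cells that had no Cst7 or Lpl count and less in each higher class with the sexes pooled. Itgax had a log2 ratio of 0.74 (0.64 to 0.83) in class 0 and 0.49 (0.27 to 0.71) in class 1-2, but 0.01 (-0.19 to 0.21) in class 3-9 and -0.11 (-0.23 to 0.01) in the 10 or more class, or -0.15 (-0.28 to -0.02) there without the 10 cells richest in Itgax. The class 0 ratio stands beside the plexus-rich droplets, where Itgax also differed (0 VEH counts and 24 LEM counts), and the part of free RNA in it was not tested. Cd9 had 0.36 (0.35 to 0.37), 0.28 (0.26 to 0.31), 0.12 (0.09 to 0.16) and 0.09 (0.06 to 0.12). A larger excess in class 0 was not particular to these genes. Among other DAM genes, Apoe had 0.75 in class 0 and 0.05 in the 10 or more class, and Axl 0.71 and -0.09. Others did not follow, as Ccl6 had -0.81 and -0.51. Igf1 was also highest in class 0 but did not fall at each step (0.67, 0.27, 0.50 and 0.25). In class 0, Itgax, Lgals3, Igf1 and Gpnmb, or 4 of 6 members, passed 1.5-fold, beside 1.3% of all genes higher and 0.974% lower. Gpnmb did so from 1 count against 14 (log2 3.34, 0.63 to 8.75), and Igf1 from 36 against 79 (0.67, 0.08 to 1.28), and only Itgax and Cd9 reached 1% of class 0 cells. Markers of choroid plexus also stood higher in LEM class 0, at 104 CPM against 29.1 in VEH, and those of border-associated macrophages at 9.57 against 6.25. Without the droplets rich in either set, the library levels of Itgax were 25.4 and 32.7 CPM and those of Lgals3 3.51 and 7.0 CPM. In the 10 or more class plexus markers were at 4.87 and 62.1 CPM and macrophage markers at 1.48 and 8.90 CPM, with Kl, Aqp1 and Clic6 and with Cbr2, F13a1, Lyve1 and Cd163 at 0 in VEH. Their part in the differences of that class was not tested, and the LEM droplets rich in plexus markers held 24 of the 3206 LEM counts of Spp1.

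**Figure D2:**
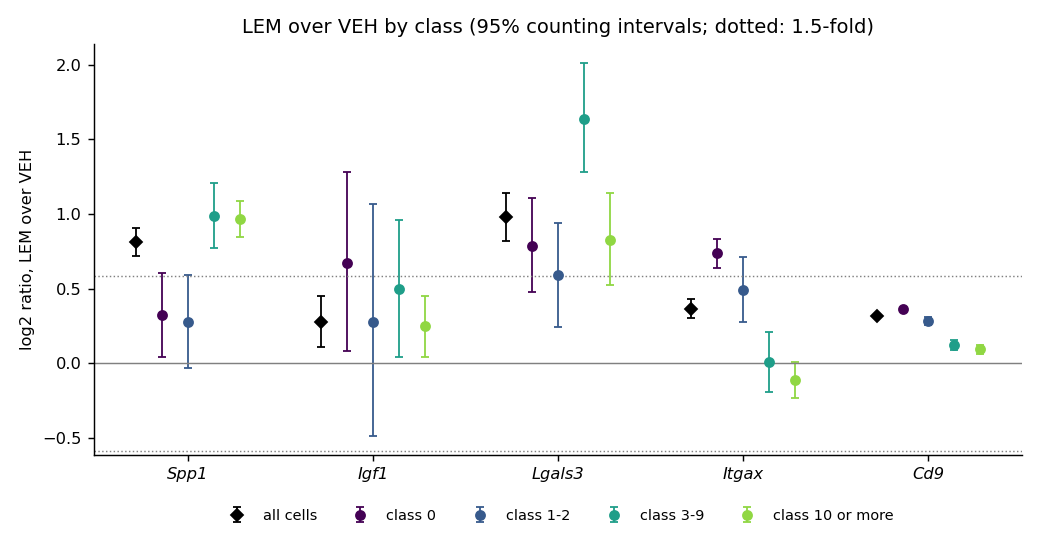
Log2 ratio of LEM over VEH (vertical axis) for 5 genes in all cells (black diamonds) and in each class (circles), with 95% counting intervals and dotted lines at 1.5-fold. Spp1 lay near 1 in the 2 highest classes and near 0.3 in the lowest, while Itgax ran from 0.74 in class 0 to -0.11 in the 10 or more class.

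The sexes of the pooled mice differed in several members. Spp1 in the 10 or more class stood at 136 CPM in female and 182 in male VEH cells, and at 191 and 492 in LEM. The female log2 ratio of LEM to VEH was 0.50 (0.26 to 0.74), from 122 and 209 cells, and the male ratio 1.43 (1.27 to 1.6), from 198 and 178 cells. Spp1 was thus higher in LEM in either sex, with counting intervals that did not overlap. In class 3-9 the female ratio was 0.20 (-0.23 to 0.63) and the male ratio 1.6 (1.28 to 1.92). Igf1 pointed in opposite directions. Its level in the 10 or more class was 116 CPM in female and 32.5 in male VEH cells, and 66.0 and 105 in LEM cells, giving log2 ratios of -0.82 (-1.13 to -0.50) and 1.69 (1.32 to 2.08).

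For Lgals3 in the 10 or more class, female cells had 20.8 and 25.7 CPM (log2 ratio 0.30, -0.33 to 0.97) and male cells 34.6 and 70.9 CPM (1.03, 0.64 to 1.44). In class 3-9 the female ratio of this gene was the larger, from 10 to 106 counts (2.58, 1.65 to 3.68), beside a male ratio of 0.91 (0.44 to 1.39). In class 1-2 the male ratio was 0.03 (-0.53 to 0.60), from 49 and 63 counts, and the female ratio 0.93 (0.32 to 1.58). The class 0 ratio of Itgax was 0.35 (0.18 to 0.53) for females against 0.96 (0.83 to 1.10) for males, and in the 10 or more class both intervals included 0. Cd9 in class 0 had ratios of 0.19 (0.17 to 0.21) for females and 0.47 (0.46 to 0.49) for males. Within a sex the order of the classes was not kept throughout, as class 1-2 of female cells had ratios of 0.44 for Itgax and 0.23 for Cd9, above those of class 0, and the 10 or more class of male cells 0.11 and 0.19, above the 0.06 and 0.18 of class 3-9. None of these differences between the sexes was tested. How many mice of each sex each library held, and which mouse gave which cell, was not analysed here, so sex cannot be told apart from single animals.

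**Figure D3:**
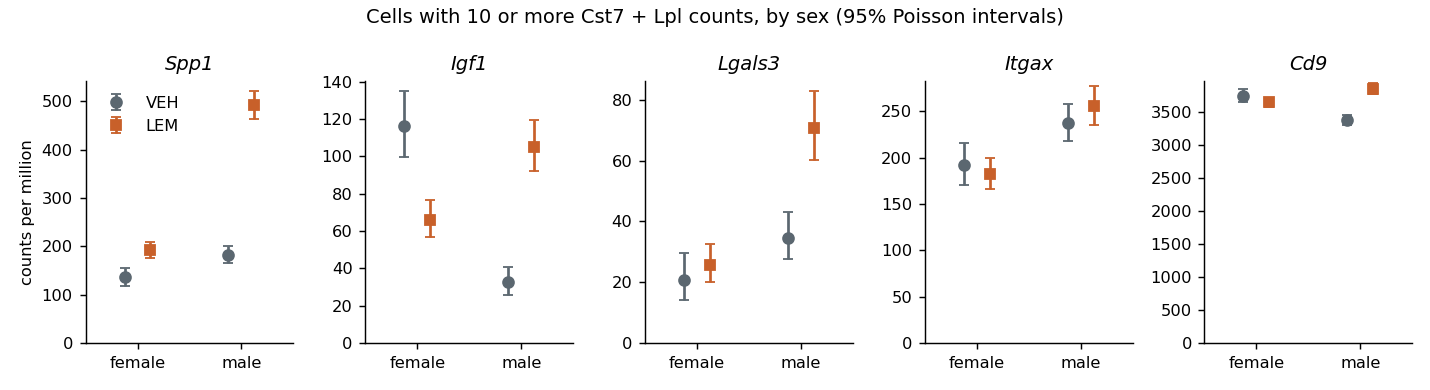
Level of 5 genes in CPM (vertical axes, from 0) in female and male cells of the 10 or more class, for VEH (grey circles) and LEM (orange squares), with 95% Poisson intervals. Igf1 was 116 CPM in female and 32.5 in male VEH cells and 66.0 and 105 in LEM cells, and Spp1 in male LEM cells stood apart at 492 CPM.

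A small number of cells rich in Spp1 were far more frequent in LEM. Cells with 10 or more Spp1 counts, a limit chosen after the values were seen, numbered 13 in VEH and 81 in LEM and held 14.3% and 46.0% of the Spp1 counts. Of these, 12 and 57 were in the 10 or more class, and 21 of the LEM cells were in class 3-9. They numbered 8 male cells in VEH and 55 in LEM, against 3 and 13 female cells. Their homeostatic P2ry12 stood at 1883 and 1921 CPM, less than the 4287 and 4103 CPM of the whole libraries. The 10 or more class as a whole was at 2177 and 2206 CPM. Without these cells 1130 VEH and 1732 LEM counts of Spp1 remained, or 9.74 and 10.8 CPM, a log2 ratio of 0.16 (0.05 to 0.27) against 0.81 with them. Because the limit was set on Spp1 itself, this describes where the counts lie and is no test. Leaving out only the 10 highest cells per library, which held 11.99% and 13.3% of the counts, gave 0.79 (0.69 to 0.89).

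Cells high in Lgals3 were fewer. The 7 VEH and 26 LEM cells with 10 or more Lgals3 counts lay in all classes. In LEM they numbered 5, 6, 8 and 7 in ascending order, out of 21581, 1759, 561 and 491 cells. They were thus a far larger part of the 2 upper classes than of class 0. These cells held 23.6% and 44.9% of the Lgals3 counts. Without them 327 VEH and 644 LEM counts remained, or 2.81 and 4.01 CPM. The log2 ratio was then 0.51 (0.32 to 0.71), against 0.98 with them. Leaving out only the 10 highest cells per library gave 1.05 (0.86 to 1.24). Because the limit was set on Lgals3 itself, the lower ratio describes where the counts lie and is no test. The Spp1 level of the cells high in Lgals3 was 48.2 CPM in VEH and 72.5 in LEM, with the VEH value from 3 counts. Those levels were above the 11.3 and 19.9 CPM of the whole libraries. The LEM level was below the 133 and 322 CPM of all LEM cells of class 3-9 and of the 10 or more class. Cells high in Spp1 had 1 Lgals3 count in VEH, too few to read, and 32 in LEM, or 29.2 CPM (20.0 to 41.3) beside 7.27 CPM in the library. Class 3-9 and the 10 or more class of LEM, which held 21 and 57 of these 81 cells, had 67.1 and 47.8 CPM of Lgals3. Cells high in Lgals3 were also low in P2ry12 (739 and 1110 CPM) and had 3809 and 4235 CPM of Cd9. Of these cells, 1 in VEH and 6 in LEM carried both Xist and Y-linked counts. Within the VEH 10 or more class, Lgals3 was 9.56 CPM in cells with a Spp1 count and 58.1 CPM in those without, and in LEM 41.5 and 63.7 CPM. Read the other way, Spp1 was 163 CPM in VEH cells with an Lgals3 count and 165 in those without, and in LEM 470 and 303 CPM, so the 2 genes did not part cells in a single way. Such values rest on 32 and 59 Lgals3-positive cells.

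Bands within the 10 or more class, of 10-19, 20-39 and 40 or more summed Cst7 and Lpl counts, were set after the values were seen, and Itgax was higher at each next band in both libraries. Itgax went from 129 over 207 to 376 CPM in VEH and from 128 over 202 to 384 CPM in LEM, nearly equal in the libraries at each band. Spp1 went from 131 over 166 to 209 CPM in VEH and from 238 over 285 to 546 CPM in LEM, higher in LEM at each band. Igf1 stood at 59.6, 53.5 and 99.6 CPM in VEH and at 52.1, 105 and 111 CPM in LEM. Cd9 stayed between 3389 and 3766 CPM throughout. Lgals3 was 30.3, 41.4 and 7.83 CPM in VEH, lowest in the top band, and 56.5, 36.1 and 47.5 CPM in LEM. Median depth in these bands rose from 10730.5 to 13902.5 counts in VEH and from 11280.5 to 14400.5 in LEM.

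Co-detection was counted per cell against the number expected if the genes were found independently. Over whole libraries, pairs among Spp1, Igf1, Itgax and Lgals3 shared cells many times more often than independence gives. Spp1 and Igf1 were found together in 104 VEH cells where 6.12 were expected (17.0 times) and in 162 LEM cells where 11.3 were expected (14.3 times). Spp1 and Itgax shared 301 cells for 52.3 expected (5.76 times) in VEH and 459 for 118 (3.89 times) in LEM. The smallest of the 6 ratios in each library was that of Itgax with Lgals3, 4.97 in VEH and 3.37 in LEM. Pairs with Cd9 stayed near 1, since nearly every cell carried Cd9.

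After thinning to 2000 counts the ratio for Spp1 and Itgax was 7.39 in VEH and 4.46 in LEM, and for Itgax and Igf1 10.3 and 6.23. The median over all pairs with at least 1 expected joint cell was 1.10 in VEH (7 pairs) and 2.65 in LEM (10 pairs), and without the pairs that hold Cd9 it was 7.39 and 6.23. Pairs with Cd9 lay near 1, so a median over all pairs depends on which pairs it holds. Inside the 10 or more class the medians with Cd9 pairs included were 1.01 (10 pairs) and 1.09 (13 pairs). Single pairs there ran from 0 to 1.51 in VEH and from 0.751 to 1.66 in LEM. When expected cells were summed over the 4 classes, the ratios were much closer to 1. The ratios with deposited counts then ran from 1.22 to 1.78 for the 6 pairs in VEH and from 0.973 to 1.64 in LEM. With thinned counts they ran from 0.939 to 2.12 in VEH and from 0.980 to 1.63 in LEM. Spp1 with Lgals3 was at 1.25 and 0.973 (thinned 0.939 and 1.04), and Itgax with Lgals3 at 1.78 and 1.52 (thinned 2.12 and 1.63).

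**Figure D4:**
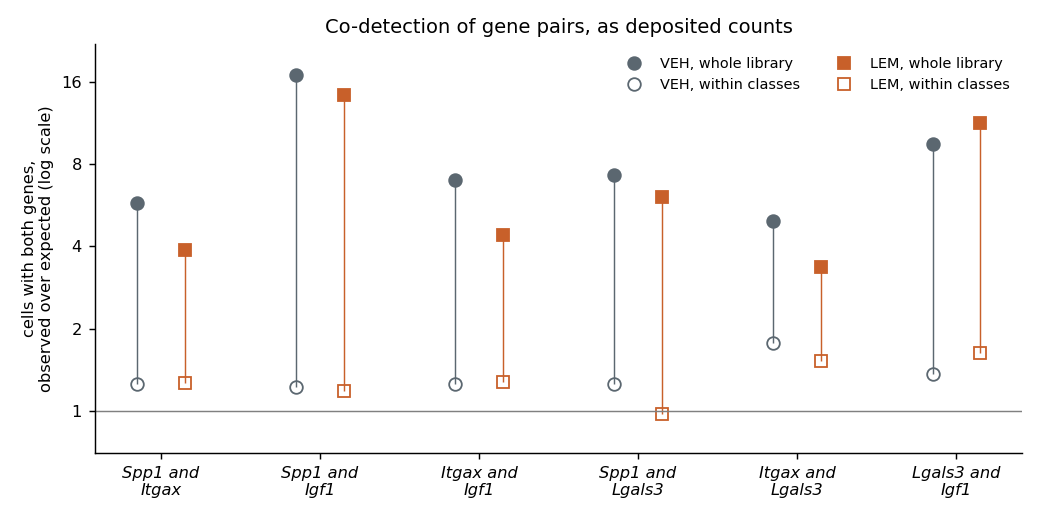
Cells with both genes over the number expected from independent detection (vertical axis, log scale) for 6 gene pairs in VEH (grey circles) and LEM (orange squares). Filled points take the whole library as the base and open points sum the expectation over the 4 classes, which brought Spp1 and Igf1 from 17.0 to 1.22 in VEH and from 14.3 to 1.18 in LEM.

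Most cells carried Cd9 and no other member. Exactly 1 of the 6 genes was found in 82.8% of VEH and 80.3% of LEM cells, and 4 or more in 106 VEH cells (0.577%, 0.473 to 0.697) and 170 LEM cells (0.697%, 0.596 to 0.809). The log2 ratio of these shares was 0.27 (-0.09 to 0.64), with 0 inside the interval. With 2 counts required for detection it was 0.86 (0.16 to 1.62), with 0 outside. In the 10 or more class 20.1% of VEH (16.3 to 24.4) and 25.5% of LEM cells (21.7 to 29.6) carried 4 or more, and only 1 cell in each library carried all 6. In class 0, 3 cells of each library carried 4 or more. After thinning, the shares of the 10 or more class with 4 or more were 1.51% in VEH (0.557 to 3.26) and 2.65% in LEM (1.42 to 4.49). Outside Cd9, at least 1 member was found in 7.69% of VEH (7.29 to 8.11) and 12.5% of LEM (12.06 to 12.95) class 0 cells. Most of these carried Itgax, which was also found in 0 of 39 VEH and 16 of 130 LEM droplets rich in plexus markers, and the part of free RNA in this share was not tested.

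**Figure D5:**
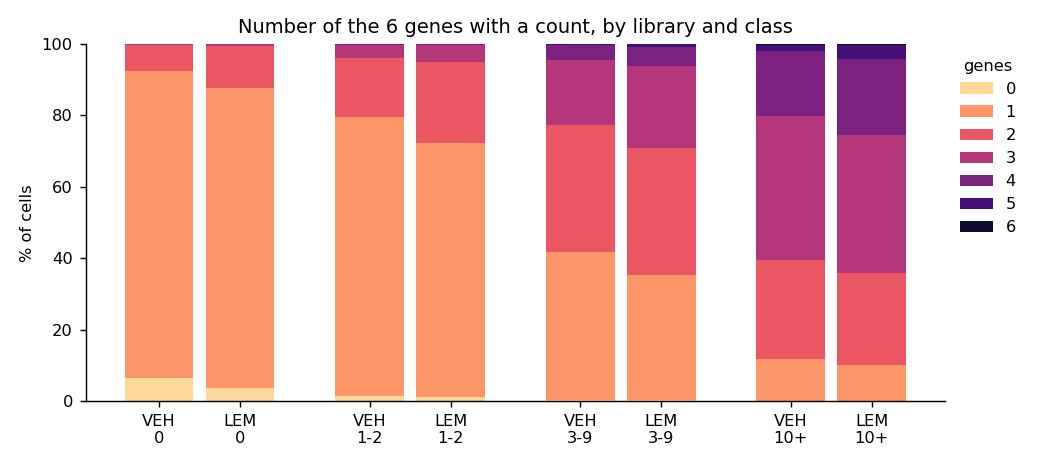
Share of cells in percent (vertical axis) with a count for 0 to 6 of the genes (colours) in each class, VEH beside LEM. In the 10 or more class 20.1% of VEH and 25.5% of LEM cells carried at least 4, against 3 cells of each library in class 0.

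Cells grouped by how many members were found, in thinned counts, differed in homeostatic and DAM genes outside the list. From 1 member upward P2ry12, Tmem119 and Cx3cr1 were lower and Apoe, Trem2 and Axl higher at each step, while the 2240 VEH and 1781 LEM cells with 0 members had 3936 and 3631 CPM of P2ry12, less than cells with 1, and 991 and 1943 CPM of Apoe. In VEH P2ry12, a purinergic receptor of homeostatic microglia, was at 4441 CPM with 1 member, 3156 with 2, 1880 with 3 and 1473 with 4 or more, and in LEM at 4265, 3200, 1914 and 1119. Apoe, the lipid carrier, ran the other way, from 1272 over 3888 and 8548 to 11984 CPM in VEH and from 1935 over 3895 and 8326 to 10934 CPM in LEM. Axl, a receptor for dying cells, went from 9.46 to 239 CPM in VEH and from 11.6 to 201 CPM in LEM. The last group held 10 VEH and 19 LEM cells.

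Genes whose level was most like that of a member were sought over 16 pools (2 libraries, 2 sexes and 4 classes) by Pearson correlation of log2(CPM + 1). The pools share libraries and classes, so the correlations describe the same class gradient many times. Spp1 was most like Axl (r = 0.98), Plaur and Ctsb, Itgax like Aplp2 (0.99), Pld3 and Rps20, Igf1 like Gusb (0.99), Lgi2 and Arpc1b, and Cd9 like Cd63 (0.99), Mt1 and Lilrb4a. Lgals3 was most like Ndufa4 (0.96), Atp5g3 and A430093F15Rik. Gpnmb reached only 0.84 with Pigt, above Dhrs1 and 4833439L19Rik. Among the members, Spp1 and Itgax were at 0.97 and Itgax and Lgals3 at 0.85.

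Most genes on a list of receptors, partners and related genes, drawn up for all 7 listed genes, did not reach the 2-fold limit between the end classes. Of 30 such genes 27 were detected, and 3 in VEH and 4 in LEM were at least 2-fold higher in the 10 or more class than in class 0, led by the galectin ligand Lgals3bp (log2 1.91 and 1.82), while 2 and 1 were lower, with the integrin chain Itga9, a Spp1 receptor, lowest at -1.68 in each. Over all genes 7.11% and 6.69% were higher and 8.66% and 8.41% lower by that fold. The list's medians were -0.47 and -0.59, beside -0.29 over all genes in each library. Between the libraries none of the 27 detected genes of the list passed 1.5-fold over all cells, a count near the 1.2% and 0.932% of all genes that did. Cd44, a receptor for Spp1, stood at 8.94 CPM in VEH and 6.55 in LEM (log2 -0.45), Itgb2, the partner chain of Itgax, at 332 and 346 CPM (0.06), and Igf1r at 83.9 and 75.7 CPM (-0.15). Igfbp4, an Igf1-binding protein, was the highest, at 42.0 and 53.9 CPM (0.36).

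Other DAM genes set the scale for the treatment values. Of 32 listed genes 27 were detected over all cells, where 1.2% of all genes were higher and 0.932% lower by 1.5-fold, and 2 were higher in LEM by 1.5-fold and 1 lower, with a median log2 ratio of 0.08. Colec12, a scavenger receptor, was highest (29.9 and 48.6 CPM, 0.70) and the chemokine Ccl6 lowest (252 and 148 CPM, -0.76). In class 0, 4 of 27 detected genes were higher by 1.5-fold and 1 lower, beside 1.3% and 0.974% of all genes. The median there was 0.13, and values ran from Fabp5, a fatty acid carrier (0.92), to Ccl6 (-0.81). In the 10 or more class the median was 0.02, with Hpse at 17.2 and 29.5 CPM (0.78) and Fabp5 at 108 and 74.6 CPM (-0.53). Cst7 itself, used for the classes, was at 2188 and 1841 CPM there, and Lpl at 404 and 437 CPM. In that class Spp1 (0.97) lay above the highest of these 30 detected genes.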

How the data were processed

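Microglia of 5 PSAPP mice per treatment were pooled to 1 10x 5′ library each. Per the labels and methods, the authors aligned reads with Cell Ranger 8.0.0 to mm10, used SoupX 1.6.2 on free RNA, and kept cells with at least 500 genes, at most 20000 counts and at most 2.5% mitochondrial counts. The authors deposited whole-number UMI counts per gene and cell. Whether SoupX had been applied to them is not given in the sources used here. Cells are numbered, so barcodes shared by the libraries could not be counted, and 0 cells had identical counts in both.

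Counts were summed per library and class of Cst7 plus Lpl counts (0, 1-2, 3-9, 10 or more), divided by the total (CPM), and given with exact Poisson intervals, Clopper-Pearson intervals for shares and exact conditional binomial intervals for ratios, all at 95% (Python 3.11.15, numpy 2.4.6, scipy 1.17.1). Each transcript is counted once at its 5′ end, so no length scaling was used. Backgrounds cover genes found in at least 1% of the cells compared in either group. A floor of 3 counts stood in for 0. Cells were thinned at random to 2000 counts and shallower cells (1305 VEH, 1215 LEM) left out. Cells with a summed count of at least 5 border-associated macrophage markers (Mrc1, Pf4, Cbr2, F13a1, Lyve1, Cd163) or 20 choroid plexus markers (Enpp2, Folr1, Kcnj13, Kl, Prlr, Sostdc1, Aqp1, Clic6) were called rich in them. No doublet caller was run; droplets with both Xist and Y-linked counts were left out in an alternative. The scripts were tested on simulated data.

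The genes, lists, classes and named genes (the members, class genes, extremes of each list, and the 3 genes most like each member) were chosen with earlier results of these data known. Gene positions are those of GENCODE on GRCm38 and promoter windows those of RefSeq. Alternatives were other scalings, sexes, thinning, left-out droplets and other class rules.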

Additional observations from a re-analysis of the deposited data

Results flagged for a closer look

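Igf1 was singled out because its 2 sexes moved in opposite directions between the libraries, with counting intervals clear of 0 on both sides. Over all cells the log2 ratio of LEM to VEH was -0.45 (-0.72 to -0.18) in female cells, from 221 VEH and 245 LEM counts, and 1.23 (0.92 to 1.54) in male cells, from 118 and 348 counts. In the 10 or more class the ratios were -0.82 in female and 1.69 in male cells. The VEH library had the wider gap between the sexes, with Igf1 higher in female cells by a log2 ratio of 1.58 (1.25 to 1.92), while in LEM it was -0.09 (-0.33 to 0.15). Cells with 5 or more Igf1 counts numbered 11 female and 1 male in VEH and 13 female and 18 male in LEM. The difference between the sexes was not tested, since each library is 1 pool and the cells of each sex may come from very few mice.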

How the results depend on the processing

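With 1 pool per treatment no replicate could be left out, and the limits above are those of counting and of single animals. Over 12 settings the median log2 ratio of the 6 genes stayed between 0.34 and 0.68, against 0.35, and of 72 values of single genes 67 kept their direction. Igf1 turned to -0.0217 when the share of each cell's counts was averaged over cells and to -0.45 in female cells alone, and Gpnmb to -0.18 after thinning and -0.024 without macrophage-rich and plexus-rich droplets. The fifth value, Gpnmb without the 10 richest cells, has no direction to read, with 0 VEH and 4 LEM counts. The number of members past 1.5-fold, 2 of 6, became 1 (Lgals3, with Spp1 lost) with that average, 3 in male cells and 5 without the 10 or more class. The 5 include Gpnmb from 2 VEH and 15 LEM counts and Igf1 from 120 and 252. In female cells the 2 were Lgals3 and Gpnmb, the latter from 1 and 4 counts. No share over all genes was computed for these settings. The class median of 5.53 in VEH was 5.06 with thinned classes (the highest from 4 thinned counts), 4.18 with Cst7 alone and 4.36 in female cells. That of 5.34 in LEM was 4.68 with Cst7 alone, 3.68 in female and 6.09 in male cells. The log2 ratio of the share in the 10 or more class was -0.42 after thinning, with the limit at 4 thinned counts. It was 0.21 in female and -0.47 in male cells. That of cells with 4 or more members was -0.12 in female cells. It was 0.86 (0.16 to 1.62) when 2 counts were required, an interval without 0. Median co-detection in VEH (1.10) was 4.97 without thinning, 1.39 with 2 counts required and 7.39 without Cd9 pairs. In LEM (2.65) it was 3.63, 1.20 and 6.23 in that order, 1.09 within the 10 or more class, 0.998 within class 0, 1.08 in either sex and 1.04 with expectations summed over classes. These medians cover only pairs with at least 1 expected joint cell, so the set of pairs changes with the setting. In LEM the 10 pairs became 13 within the 10 or more class and 7 within class 0. Pairs with Cd9 lay near 1, so such medians are not like for like. The pairs without Cd9, the summed expectations and leaving out the 10 richest cells were chosen after seeing the data. Beyond the changing sets of pairs, the cause of these shifts was not tested. No paired analysis was possible because each treatment had 1 library.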

Other observations

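Other states of the same cells moved in their own way in the 10 or more class. All 4 genes of the MHC class II list were lower in LEM, none past 1.5-fold, with a median log2 ratio of -0.41 and Cd74, the invariant chain, at 2529 CPM in VEH and 2023 in LEM. Within that class Cd74 was 2879 CPM in VEH cells with a Spp1 count and 1901 in those without, and 2237 and 1478 CPM in LEM. Cells with a Spp1 count were also deeper (median 12588 against 10516 counts in VEH, 13195 against 10993.5 in LEM) and had more Cst7 and Lpl counts (medians of 26 against 19, and 22 against 15.5). Of 4 proliferation genes 3 were higher in LEM past 1.5-fold, with Top2a at 15.7 and 27.5 CPM (0.81), and of 4 interferon genes 1, Isg15, at 23.3 and 44.7 CPM (0.94), where 8.1% of all genes were higher and 7.49% lower by that fold. None of the 15 homeostatic genes passed that fold (median 0.02), from Fcrls (0.24) to Jun (-0.26). Against class 0, 4 homeostatic genes in VEH and 3 in LEM were at least 2-fold lower, where 8.66% and 8.41% of all genes were, with Tmem119 at log2 ratios of -1.33 and -1.14.

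Igfbp2, another Igf1-binding protein and a partner that did not reach 1% of cells, stood at 2.87 CPM in VEH and 9.01 in LEM (log2 1.65), beside the summed choroid plexus markers at 36.8 and 103 CPM, and whether its level comes from those droplets was not tested.

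Droplets rich in border-associated macrophage markers carried Igf1 at 44.5 CPM (31.4 to 61.4), with a count in 25.5% of 94 droplets, and no Gpnmb count.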
